A study of Danio rerio with 6 samples.

Results

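Type I collagen chains and the genes that fold, modify and regulate them were followed by RNA sequencing in zebrafish larval cells sorted for green fluorescence. The genes were taken by name, with no threshold on their values, from a set of 10: col1a1a, col1a1b, col1a2, serpinh1b, serpinh1a, fkbp10b, plod2, crtap, p3h1 and creb3l1. These names matched 11 of the 32520 genes in the table, because the name FKBP10 is carried by another gene (ENSDARG00000099183) beside fkbp10b (ENSDARG00000045129). The exposed group held 3 libraries from embryos of an sp7-eGFP transgenic line kept in 200 nM bisphenol A (BPA), an industrial plastic monomer, from 24 hours until 4 days post fertilization. The control group held 3 libraries of the same line and age, with 400 embryos pooled in each arm. The labels give no other allele or agent for either group and do not say what the control medium contained. Separate embryo pools are not stated for the 3 libraries within a group, so the p-values measure the spread between these libraries, which may be technical.

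Type I collagen is the main fibrous protein of bone, skin and tendon. Its chains enter the endoplasmic reticulum, where prolines and lysines are hydroxylated, wind into a triple helix with the help of chaperones, leave in large coated carriers, and are trimmed and crosslinked into fibrils outside the cell. Bony fish carry a duplicated alpha-1 gene, so zebrafish have col1a1a, col1a1b and col1a2. Mutations of the human counterparts of most of these genes cause brittle bone disease. In larval zebrafish, type I collagen genes are transcribed in epidermal cells and fibroblasts as well as in osteoblasts.

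The exposed libraries held 30748435 to 42863847 counts and the control libraries 32173615 to 43403568. The cells are labelled as embryonic osteoblasts. SP7, the gene whose regulatory region drives the reporter, averaged 8.49 ± 0.355 CPM (counts scaled to a common library size) in exposed and 6.87 ± 1.55 CPM in control libraries (SD, n = 3 each), a difference that did not pass edgeR's test (adjusted p = 0.175). No library held a count of bglap, the osteocalcin gene (0 in all 6), where 3 counts would be 0.0682 to 0.0974 CPM, a limit that covers counting error only. The 12 osteoblast marker genes found summed to 93.6 to 100.4 CPM in exposed and 108 to 116 CPM in control libraries. Of the 11 of them tested 4 were lower, 1 higher and 6 did not pass, with a median log2 fold change of -0.45. Over all genes tested, 20.1% were higher and 18.7% lower. Epidermal marker genes, 11 in number, summed to 11648 to 11950 CPM in exposed and 6306 to 6382 CPM in control libraries. Of them 9 passed the test as higher, cldni was lower (adjusted p = 0.00266) and epcam did not pass (adjusted p = 0.490). The keratin gene krt4 alone was at 6029 ± 76.8 CPM in exposed and 3359 ± 41.3 CPM in control libraries. Of 8 leukocyte markers 7 were higher, with sums of 192 to 206 CPM in exposed and 132 to 142 CPM in control libraries. Fibroblast and tenocyte markers were lower in 9 of 15 tested genes and higher in 2. Their sum went the other way, at 1826 to 1837 CPM in exposed and 1663 to 1697 CPM in control libraries, with the matrix gene POSTN (ENSDARG00000104267) alone at 1337 ± 5.98 CPM in exposed and 966 ± 19.2 CPM in control libraries. Chondrocyte markers were lower in 8 of 13 and higher in 0, with sums of 1052 to 1097 CPM in exposed and 1288 to 1312 CPM in control libraries. The part these shifts had in the results below was not tested. In sorted bulk RNA, fewer cells of a type and less RNA per cell cannot be told apart.

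Among the 11 genes, 3 were higher in exposed libraries (col1a1b, col1a2 and serpinh1b), 4 were lower (col1a1a, fkbp10b, PLOD2 and CRTAP) and 4 did not pass an adjusted p of 0.05 (serpinh1a, the other FKBP10 gene, P3H1 and CREB3L1). The test was edgeR's quasi-likelihood test with Benjamini-Hochberg adjustment over the 21194 genes that passed the filter on low counts, which all 11 did. Of all genes tested, 38.8% were called, 20.1% as higher and 18.7% as lower, and 63.6% of these 11 were called. The exposed and control values did not overlap for 7 of the 11 genes, or 63.6%, and for 48.4% of all genes tested. Shares over all genes, in this and the other comparisons, were not matched to the expression level of the genes set against them. The median log2 fold change was -0.03 over the 11 genes and -0.003 over all genes.

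**Figure D1:**
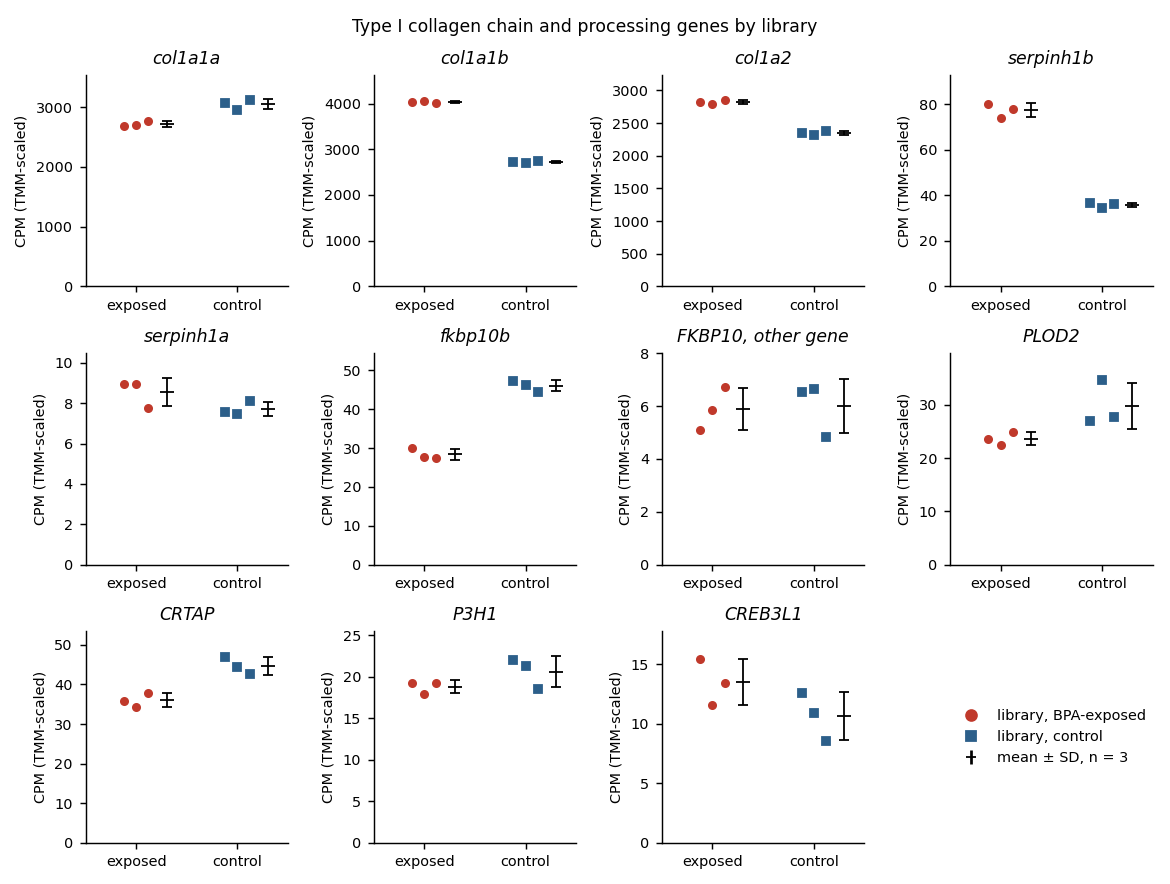
CPM (TMM-scaled, linear axis from 0) of each of the 11 genes in each library, exposed left and control right, with the mean ± SD of n = 3 beside the points. For col1a1b, col1a2 and serpinh1b every exposed value lies above every control value. For col1a1a, fkbp10b, PLOD2 and CRTAP every exposed value lies below every control value. The nearest values for PLOD2 are 25.0 CPM in exposed and 26.9 CPM in control libraries.

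The 3 chain genes did not move alike. The alpha-1 gene col1a1b (ENSDARG00000035809, listed as COL1A1) stood at 4042, 4049 and 4020 CPM in the exposed libraries, against 2719, 2689 and 2737 CPM in the control libraries. Its values varied by less than 1% within each group (coefficients of variation of 0.386% in exposed and 0.877% in control libraries), and the log2 fold change was 0.57 ± 0.01 (SE, adjusted p = 1.20e-17). For its duplicate col1a1a (ENSDARG00000012405) the exposed libraries gave 2679, 2698 and 2777 CPM and the control libraries 3069, 2957 and 3118 CPM. Every exposed value was thus below every control value, and the log2 fold change was -0.17 ± 0.03 (SE, adjusted p = 1.32e-05). The alpha-2 gene col1a2 (ENSDARG00000020007) had 2826, 2796 and 2857 CPM after exposure, against 2351, 2315 and 2384 CPM without. This was a log2 fold change of 0.27 ± 0.02 (SE, adjusted p = 1.31e-09), smaller than that of col1a1b and of opposite sign to that of col1a1a. The calls of all 3 chain genes remained past the threshold when any single library was left out.

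Because these 2 alpha-1 genes are paralogs and the treatment of reads that match both is not stated, their sum was also taken. Together col1a1a and col1a1b reached 6722, 6748 and 6797 CPM in exposed libraries, against 5788, 5646 and 5855 CPM in control libraries, so the pair was higher as a whole. All 3 chains summed to 9582 ± 62.2 CPM in exposed and 8113 ± 141 CPM in control libraries (SD, n = 3 each). As a share of all counts, the 3 chains took 0.956% ± 0.00614 in exposed and 0.812% ± 0.0122 in control libraries, a difference of 0.144 percentage points (SE 0.00788). The summed markers of epidermis and of leukocytes given above were also higher in the exposed libraries. So was the sum for fibroblasts and tenocytes, but most of it came from POSTN (ENSDARG00000104267). Of the 15 tested fibroblast and tenocyte markers, 9 were lower and 2 higher. The summed markers of osteoblasts and of chondrocytes were lower. A link of any of these sums to the chains was not tested.

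Ratios between genes within a library do not depend on how libraries are scaled. They depend on gene length, so their own size was not read and each was set only against the same ratio in the other group. For each of the 7 within-library values tested, the groups did not overlap and the two-sided exact permutation p was 0.1, the smallest that 3 against 3 libraries allow, and 0.1 after adjustment over the 7. The log2 ratio of col1a1b to col1a1a counts was 0.59, 0.59 and 0.53 in exposed libraries, against -0.17, -0.14 and -0.19 in control libraries. The difference of 0.74 (SE 0.02) is many times the spread within either group. In terms of the pair's counts, col1a1b held 59.8% ± 0.545 in exposed and 47.1% ± 0.462 in control libraries (SD, n = 3 each).

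The balance of alpha-1 to alpha-2 counts moved far less. The log2 ratio of the summed alpha-1 genes to col1a2 was 1.25, 1.27 and 1.25 in exposed and 1.30, 1.29 and 1.30 in control libraries, a difference of -0.04 (SE 0.01). Among the counts of all 3 chains, col1a2 held 29.5% ± 0.173 in exposed and 29.0% ± 0.0990 in control libraries, while col1a1a held 28.4% ± 0.364 in exposed and 37.6% ± 0.374 in control libraries. The share of col1a1b was 42.1% ± 0.433 in exposed and 33.5% ± 0.288 in control libraries. The ratio of summed alpha-1 to alpha-2 counts in exposed libraries was 0.975 of that in control libraries.

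**Figure D2:**
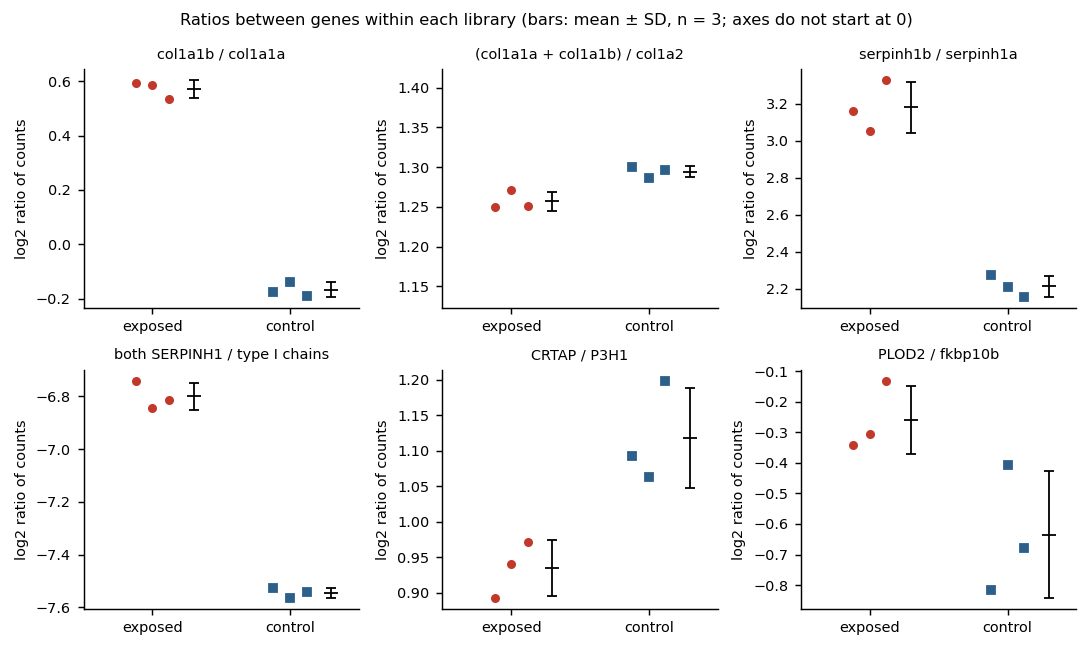
Log2 ratios of counts between genes within each library, exposed (circles) left and control (squares) right, with the mean ± SD of n = 3; the axes do not start at 0 and differ between panels. The ratio of col1a1b to col1a1a differed by 0.74 between the groups, while that of both alpha-1 genes to col1a2 differed by -0.04.

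The collagen chaperone HSP47, encoded by SERPINH1 genes, binds the folded triple helix in the endoplasmic reticulum and helps collagen to leave it. Its gene serpinh1b (ENSDARG00000019949) had the largest fold change of the 11 in size. It stood at 80.2, 74.1 and 78.0 CPM in exposed libraries, against 36.6, 34.6 and 36.1 CPM in control libraries. The groups were far apart, with a log2 fold change of 1.12 ± 0.04 (SE, adjusted p = 2.89e-15). For its duplicate serpinh1a (ENSDARG00000075954) the values were 8.96, 8.95 and 7.77 CPM after exposure and 7.57, 7.48 and 8.09 CPM without. These overlapped, and the log2 fold change was 0.15 ± 0.08 (SE, adjusted p = 0.483).

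Within each library the log2 ratio of serpinh1b to serpinh1a counts was 3.16, 3.05 and 3.33 in exposed and 2.27, 2.21 and 2.16 in control libraries, a difference of 0.97 (SE 0.09). Both SERPINH1 genes together were also set against the type I chains. That log2 ratio was -6.74, -6.84 and -6.81 in exposed and -7.53, -7.56 and -7.54 in control libraries. The difference of 0.74 (SE 0.03) corresponds to 1.68 times as many chaperone counts per count of the chains they serve.

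Of the 11 genes, those of enzymes, their helper subunit and isomerases that act on the chains were lower or did not pass. The complex of CRTAP, P3H1 and cyclophilin B hydroxylates selected prolines at the third carbon, as known from mammals. CRTAP, its helper subunit, had 35.8, 34.4 and 37.8 CPM in exposed libraries, against 47.0, 44.5 and 42.6 CPM in control libraries. No value overlapped, and the log2 fold change was -0.31 ± 0.06 (SE, adjusted p = 7.53e-04). P3H1, the enzyme subunit, had 19.3, 17.9 and 19.3 CPM in exposed and 22.0, 21.3 and 18.6 CPM in control libraries. Here control library 3 lay inside the exposed range, and the log2 fold change of -0.13 ± 0.08 (SE) did not pass (adjusted p = 0.318). It was -0.09 without control library 1 and -0.21 without control library 3, neither of which passed. The log2 ratio of CRTAP to P3H1 counts was 0.94 ± 0.04 in exposed and 1.12 ± 0.07 in control libraries (SD, n = 3 each), a difference of -0.18 (SE 0.05).

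PLOD2 hydroxylates lysines at the ends of the chains, which sets the type of crosslink, and FKBP10 is a prolyl isomerase of the endoplasmic reticulum that PLOD2 needs for full activity in mammals. Values of fkbp10b were 29.9, 27.7 and 27.4 CPM in exposed libraries, against 47.4, 46.2 and 44.5 CPM in control libraries. The exposed level was 0.615 of the control level (log2 fold change -0.70 ± 0.05 SE, adjusted p = 4.62e-09). The other FKBP10 gene showed 5.10, 5.85 and 6.72 CPM in exposed and 6.53, 6.66 and 4.84 CPM in control libraries, with overlap between the groups (log2 fold change -0.03 ± 0.19 SE, adjusted p = 0.926). PLOD2 itself stood at 23.6, 22.5 and 25.0 CPM after exposure, against 26.9, 34.8 and 27.8 CPM without. Control library 2 was higher than the others, and the log2 fold change of -0.34 ± 0.12 (SE, adjusted p = 0.00582) became -0.21 without that library, with an adjusted p of 0.0882. The log2 ratio of PLOD2 to fkbp10b counts was -0.34, -0.30 and -0.13 in exposed and -0.82, -0.41 and -0.68 in control libraries, a difference of 0.37 (SE 0.14).

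CREB3L1 is a transcription factor held in the membrane of the endoplasmic reticulum and, in mouse osteoblasts, an activator of the alpha-1 collagen gene. It had 15.5, 11.6 and 13.4 CPM in exposed libraries, against 12.6, 10.95 and 8.56 CPM in control libraries. Control library 1 lay between the exposed values, and the log2 fold change of 0.33 ± 0.20 (SE) did not pass (adjusted p = 0.0707). Without control library 1 the adjusted p was 0.0135 and without exposed library 2 it was 0.0471, with log2 fold changes of 0.46 and 0.43. In the other direction, the log2 fold change was 0.19 without control library 3 (adjusted p = 0.305) and 0.22 without exposed library 1 (adjusted p = 0.338). Its spread within a group was the widest of the 11 genes, with coefficients of variation of 14.4% in exposed and 18.9% in control libraries.

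**Figure D3:**
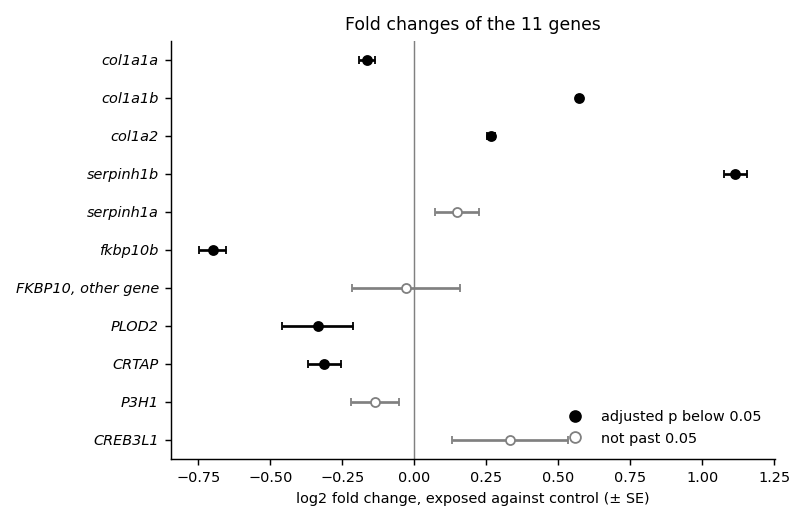
Log2 fold change of each of the 11 genes, exposed against control, with the SE of the difference of group means; filled points passed an adjusted p of 0.05 in edgeR's quasi-likelihood test. The chain and chaperone genes span -0.17 to 1.12 and the modifying enzymes and isomerases -0.70 to -0.03.

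Other genes of collagen modification and folding in the endoplasmic reticulum were mostly lower. Of 21 tested genes 11 were lower, 3 higher and 7 did not pass, so that 52.4% were called lower, against 18.7% of all genes tested. The list's median log2 fold change was -0.26, against -0.003 over all genes. The lysyl hydroxylase gene PLOD1 fell to 23.6 ± 0.547 CPM in exposed libraries, against 40.3 ± 3.16 CPM in control libraries (SD, n = 3 each; log2 fold change -0.77, adjusted p = 4.38e-09). Among prolyl isomerases, FKBP9 fell to 45.7 ± 2.65 CPM in exposed against 77.0 ± 1.13 CPM in control libraries. FKBP14 had 11.1 ± 0.721 CPM in exposed and 17.2 ± 1.45 CPM in control libraries, and PPIB, the cyclophilin B subunit that joins CRTAP and P3H1, had 444 ± 11.5 CPM in exposed and 626 ± 10.6 CPM in control libraries (adjusted p = 7.06e-05 for FKBP14 and 2.47e-13 for PPIB).

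Genes of the prolyl 4-hydroxylase, whose product stabilises the helix, were added after their values were seen. The beta subunit gene P4HB was at 75.4 ± 0.625 CPM in exposed and 101 ± 4.21 CPM in control libraries (log2 fold change -0.42, adjusted p = 7.55e-08), and the alpha subunit gene P4HA2 at 17.1 ± 2.25 CPM in exposed and 23.1 ± 1.40 CPM in control libraries (adjusted p = 0.00156). Of the other alpha subunit genes p4ha1a, P4HA1 and P4HA3, none passed (adjusted p = 0.565, 0.754 and 0.407).

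The 3 genes of this group that rose encode neither hydroxylases nor prolyl isomerases, though COLGALT1 among them encodes a modifying enzyme. SPARC, a secreted collagen-binding protein of bone matrix, had 1952, 1963 and 1971 CPM in exposed libraries, against 1634, 1583 and 1560 CPM in control libraries (log2 fold change 0.30, adjusted p = 3.12e-10). TMEM38A, a cation channel of the reticulum best known from muscle, had 274 ± 3.37 CPM in exposed and 228 ± 6.37 CPM in control libraries (log2 fold change 0.27). The collagen galactosyltransferase gene COLGALT1 (ENSDARG00000058270) had 13.8 ± 1.04 CPM in exposed and 10.4 ± 0.691 CPM in control libraries (log2 fold change 0.41, adjusted p = 0.0107, or 0.0741 without exposed library 1). The other gene named COLGALT1 (ENSDARG00000073974) did not pass (adjusted p = 0.594).

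Genes of procollagen export divided between the directions. Of 29 tested genes 8 were higher, 7 lower and 14 did not pass, which is 51.7% called (27.6% higher and 24.1% lower), against 38.8% of all genes tested (20.1% higher and 18.7% lower). The median log2 fold change was -0.06. The 7 lower calls became 4 without any 1 of the exposed libraries and 5 without control library 3. Over all genes, 3958 lower calls became 3273, 3228 and 3215 without exposed library 1, 2 or 3, and 3823 without control library 3. Coat genes, grouped after their values were seen, were higher or did not pass, and the GTPases that recruit them went both ways. SEC31B, an outer coat protein gene, had 22.4, 20.5 and 21.4 CPM in exposed libraries, against 13.1, 14.5 and 13.4 CPM in control libraries (log2 fold change 0.65, adjusted p = 9.58e-06). SEC31A averaged 12.1 ± 2.60 CPM in exposed and 7.68 ± 2.09 CPM in control libraries with overlapping ranges (log2 fold change 0.65, adjusted p = 0.00307, or 0.0755 without exposed library 3). The small GTPase gene sar1ab, which starts coat assembly, had 24.8 ± 1.60 CPM in exposed and 16.2 ± 1.53 CPM in control libraries (adjusted p = 1.24e-05). Its paralog sar1b, named after its values were seen, was lower, at 143 ± 1.88 CPM in exposed and 163 ± 4.77 CPM in control libraries (log2 fold change -0.19, adjusted p = 4.93e-04). The inner coat gene SEC24A had 145 ± 5.65 CPM in exposed and 112 ± 7.40 CPM in control libraries (adjusted p = 4.23e-07). Of the other coat genes, sec23a, sec24c and SEC24D were also higher (adjusted p = 0.0021, 5.53e-04 and 0.0119). The ones that did not pass were SEC13, SEC23B and SEC24B (adjusted p = 0.544, 0.924 and 0.182). The cargo receptor gene mia3, which loads procollagen into carriers and is named here after its values were seen, was at 42.5 ± 2.39 CPM in exposed and 42.2 ± 4.91 CPM in control libraries (adjusted p = 0.945). The gene mia2 of this group, also named after its values were seen, was lower. It had 25.8 ± 1.60 CPM in exposed and 30.1 ± 0.711 CPM in control libraries (log2 fold change -0.22, adjusted p = 0.0365).

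Golgi proteases that cut CREB3-type factors free of the membrane were lower. MBTPS1 had 28.6, 32.4 and 32.3 CPM in exposed libraries, against 44.3, 43.4 and 46.2 CPM in control libraries (log2 fold change -0.52, adjusted p = 1.40e-06). MBTPS2 had 17.7 ± 1.55 CPM in exposed and 22.8 ± 2.08 CPM in control libraries (log2 fold change -0.36, adjusted p = 0.00553). The related factor gene CREB3L2, also named after its values were seen, was at 44.7 ± 2.49 CPM in exposed and 41.7 ± 1.66 CPM in control libraries (adjusted p = 0.264). The cargo receptor gene TMED3 had a log2 fold change of -0.52 (adjusted p = 0.0241), which was -0.37 and -0.40 without control library 3 and exposed library 1 (adjusted p = 0.141 and 0.142). The retrieval receptor gene KDELR3 (ENSDARG00000040912) had a log2 fold change of -0.30 (adjusted p = 0.0470). It no longer passed with control library 3 left out (adjusted p = 0.143), or with exposed library 1, 2 or 3 left out (adjusted p = 0.148, 0.0839 and 0.110).

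Outside the cell, 13 of 33 tested genes of trimming, crosslinking and fibril binding were lower, 8 were higher and 12 did not pass. This is 63.6% called (24.2% higher and 39.4% lower), against 38.8% of all genes tested (20.1% higher and 18.7% lower), with a median log2 fold change of 0.03. Among propeptide proteases, a BMP1 gene and adamts2a had fold changes of opposite sign, and TLL1, adamts2b, ADAMTS3 and ADAMTS14 did not pass (adjusted p = 0.327, 0.877, 0.473 and 0.136). BMP1 (ENSDARG00000028071), which removes the C-terminal propeptide, had 66.9, 70.7 and 73.6 CPM in exposed libraries, against 148, 151 and 143 CPM in control libraries (log2 fold change -1.06 ± 0.05 SE, adjusted p = 4.37e-17). The gene adamts2a, whose protease removes the N-terminal propeptide, had 15.8, 15.2 and 14.2 CPM after exposure and 6.72, 6.77 and 6.08 CPM without (log2 fold change 1.21 ± 0.07 SE, adjusted p = 1.85e-08). A second gene named BMP1 (ENSDARG00000028053) averaged 1.76 ± 0.0396 CPM in exposed and 3.19 ± 0.997 CPM in control libraries (log2 fold change -0.85, adjusted p = 0.0228). That call was lost without control library 2 or 3, or without any 1 of the exposed libraries, with adjusted p of 0.0643 to 0.0890.

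Lysyl oxidases start the crosslinks, and of 9 tested genes of this family 5 were lower, 1 was higher and 3 did not pass, where 18.7% of all genes tested were lower and 20.1% higher. LOXL4 (ENSDARG00000025089) had 7.93 ± 0.789 CPM in exposed and 15.2 ± 1.32 CPM in control libraries (log2 fold change -0.94, adjusted p = 1.37e-06). A second gene named LOXL4 (ENSDARG00000105442) had 2.53 ± 0.579 CPM in exposed and 2.33 ± 0.247 CPM in control libraries and did not pass (log2 fold change 0.12, adjusted p = 0.782). One gene named LOXL3 (ENSDARG00000076306) rose to 7.90 ± 0.670 CPM in exposed libraries, against 3.88 ± 0.570 CPM in control libraries (log2 fold change 1.03), but the other (ENSDARG00000039563) had 14.9 ± 1.31 CPM in exposed and 26.2 ± 1.88 CPM in control libraries (log2 fold change -0.82). Named after their values were seen, LOXL1, loxl2a and LOXL2 (ENSDARG00000044074) had log2 fold changes of -0.66, -0.79 and -0.68 (adjusted p = 3.49e-11, 8.29e-10 and 1.10e-10), while LOX itself did not pass (-0.14, adjusted p = 0.180).

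Fibril-binding and microfibril genes went both ways. Named after their values were seen, both FMOD genes were higher, at 463 and 17.1 CPM in exposed against 399 and 10.6 CPM in control libraries. DCN was also higher (221 CPM in exposed, 188 CPM in control libraries, adjusted p = 1.84e-05). ASPN was lower (31.2 CPM in exposed, 41.2 CPM in control libraries), and LUM did not pass (adjusted p = 0.654). The proteoglycan gene BGN (ENSDARG00000017884) had 5.14 ± 0.443 CPM in exposed and 2.32 ± 0.530 CPM in control libraries (log2 fold change 1.14), and the other gene of that name (ENSDARG00000002945) had 9.45 ± 0.163 CPM in exposed and 14.2 ± 1.1 CPM in control libraries (log2 fold change -0.59). The crosslinking transglutaminase gene TGM2 (ENSDARG00000070157) had 20.8 ± 3.59 CPM in exposed and 11.5 ± 1.59 CPM in control libraries (log2 fold change 0.86, adjusted p = 2.90e-06). A second gene named TGM2 (ENSDARG00000074094) had 107 ± 5.15 CPM in exposed and 100 ± 6.14 CPM in control libraries and did not pass (log2 fold change 0.10, adjusted p = 0.121). The microfibril gene mfap2 had 151, 151 and 153 CPM in exposed libraries, against 295, 272 and 267 CPM in control libraries (log2 fold change -0.87, adjusted p = 6.09e-17).

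**Figure D4:**
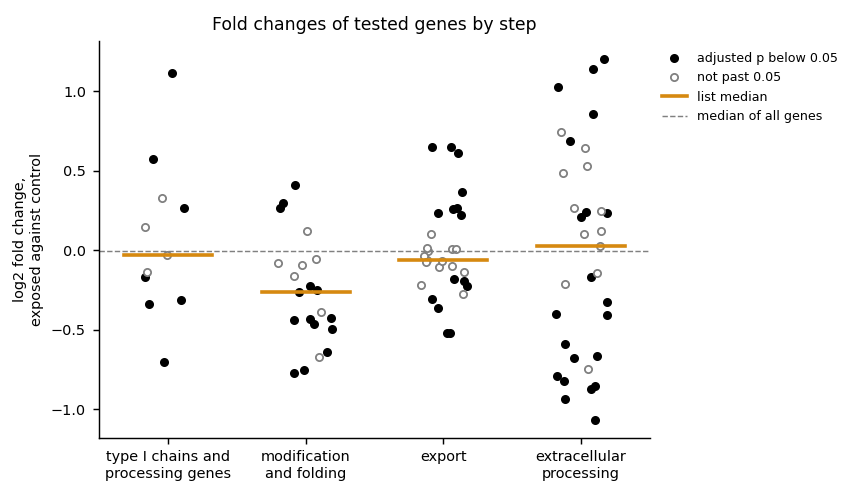
Log2 fold change, exposed against control, of each tested gene among the 11 genes and in the modification, export and extracellular groups; filled points passed an adjusted p of 0.05, orange bars are medians and the dashed line is the median of all genes. The modification group has the lowest median (-0.26), and the extracellular group spans -1.06 to 1.21.

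The profiles most like those of the chains were looked up over the 6 libraries, among 9294 other tested genes with a symbol and at least 10 CPM, by the Euclidean distance of mean-centred log2 CPM. This is a description, since a profile over 2 groups is mostly the fold change itself. Among those near to col1a1b were BCAT2 and ITM2B (distances 0.0450 and 0.0492; log2 fold changes 0.55 and 0.57). Nearest to col1a2 were SLC25A3, LTN1 and TMEM38A (distances 0.0194, 0.0357 and 0.0471; log2 fold changes 0.26, 0.26 and 0.27). Nearest to col1a1a were YWHAE, ABCF2 and pabpc1a (distances 0.0303, 0.0337 and 0.0374; log2 fold changes -0.15, -0.18 and -0.14). Of the genes named here TMEM38A was the only one in the collagen gene groups above.

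Levels were not ranked between genes, because counts grow with transcript length and lengths in the build used were not given.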

How the data were processed

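RNA of sorted cells from 3 BPA-exposed and 3 control libraries was analysed. The authors deposited raw, unscaled counts per Ensembl gene. The submitters' processing notes name build GRCz11 and, among tools, featureCounts 2.0.6, STAR 2.7.10a, FastQC and R 4.4.2; options, strand and annotation release are not given in the sources used here. Even numbers made up 76.1% to 81.7% of nonzero deposited counts. The share was 78.5%, 77.3% and 76.1% in exposed libraries and 81.2%, 80.2% and 81.7% in control libraries, without overlap. Each mate of a read pair may have been counted separately, and the cause of the difference between groups was not tested. Reads shared by paralogs or overlapping genes make those genes uncertain.

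Symbols came from a table covering 29201 of 32520 genes. Names without a paralog letter can hold several genes, each counted. The letters of 6 genes come from identifiers given with the gene list. Of the list symbols, 2 for modification and 3 for export had no match, and the 2 FKBP10 genes were counted among the 11 only.

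Counts were tested in R 4.3.3 with edgeR 4.0.16 (limma 3.58.1, statmod 1.5.0; filterByExpr with a minimum count of 10 and total of 15; TMM scaling; robust quasi-likelihood F-test, exposed against control, no block; Benjamini-Hochberg threshold 0.05), after a check on simulated data. CPM use TMM-scaled library sizes. SEs are of the difference of mean log2 CPM (prior count 2). They use each gene's own spread, while edgeR's test shares information on spread between genes, so its p-values do not follow from them. Within-library ratios were compared by an exact permutation test. Replicates correlated at 0.963 to 0.984 (log2 CPM, across genes), and none was a duplicate: counts of replicate pairs differed by chi-square values per gene of 4.72 to 9.40.

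Every matched gene of the 11 is named. From each group the rule took, among called genes of at least 1 CPM, up to 4 rises and 4 falls by fold change. The genes and groups were chosen with earlier results of these data known. Alternatives were other scalings (DESeq2 size factors, library totals), other filters, DESeq2 1.42.0, halved counts, a replicate block and leaving out each library. A gene that the likeness rule selects is not reported here. No sequences are shown because no sequence table was used here.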

Additional observations from a re-analysis of the deposited data

How the results depend on the processing

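Of 143 results for the 11 genes (13 alternatives each), 135 kept their direction and side of the threshold. PLOD2 lost its call without control library 2, and CREB3L1 passed with no low-count filter (adjusted p = 0.0443), with the replicate block (0.0473) and without control library 1 or exposed library 2. The uncalled FKBP10 gene (ENSDARG00000099183) changed sign between -0.16 and 0.06 when 1 library was left out, at 0.03 and 0.05 without control libraries 1 and 2 and 0.06 without exposed library 1. The cause was not tested. Among the 23 named genes of the other groups, 5 lost a call in 15 of 299 results and none changed direction. KDELR3 also lost it with no filter (adjusted p = 0.0615) and with the block (0.0567). Called genes numbered 8164 to 8408 over the other settings and 6712 to 8063 with 1 library left out, against 8213. With 1 library left out the 11 genes gave 6 to 8 calls, the modification group 11 to 14, export 10 to 14 and extracellular processing 20 to 22. None of the 7 within-library values moved by over 1 SD, but these alternatives could hardly move them that far. Leaving out 1 of 3 libraries cannot shift a group mean by that much. The block and the halved counts leave the differences almost unchanged, so this was no test of them.

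Same-numbered exposed and control libraries did not deviate together over all tested genes (correlations of -0.013, -0.004 and 0.012). This gave no sign of pairing, but an effect shared by a part of the genes might not show in it. The block gave 8164 calls over all genes and 8 among the 11. Leaving out 1 library keeps 2 in a group, and the counts, halved or not, cannot say how many fragments were read.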
